A study of Mus musculus with 4 samples.

Results

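The macrophages with C1q of the mouse major salivary glands were the 1041 cell barcodes, of 15707 in the deposited matrix (6.63%, 95% interval 6.24–7.03), that met a rule on 3 sets of transcripts. A barcode was a member when C1qa, C1qb and C1qc together reached at least 5 UMIs (unique molecular identifiers, each standing for 1 captured RNA molecule), when Mucl2, an abundant salivary secretory transcript, made up under 30% of its UMIs, and when the T cell receptor chains Cd3e, Cd3d and Cd3g were at 0. All cells came from wild-type female C57BL/6N mice aged 6 to 8 weeks, under physiological conditions with no treatment, whose submandibular glands (SMG) and sublingual glands (SLG) were dissociated together for droplet 3′ RNA sequencing. The labels list replicate samples and name 2 mice for each, the barcodes carry no mark of sample, gland or mouse, and the matrix therefore counted as 1 sample. No comparison between glands or animals could be made and no p-value is given. Values are levels, meaning UMIs of a gene summed over a class of cells per 10000 UMIs of that class, with exact Poisson 95% intervals, or shares of cells with exact binomial 95% intervals. Both kinds of interval cover counting error only.

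Macrophages are tissue phagocytes that engulf dying cells, degrade them in lysosomes and present peptides on MHC class II. C1q, assembled from the A, B and C chains, is the recognition unit of the classical complement pathway, and tissue macrophages are a main source of it. Their survival rests on the CSF1 receptor, and salivary glands, like other mucosal tissues, are known to hold MHC class II-rich CX3CR1+ macrophages beside LYVE1+ FOLR2+ macrophages that line vessels and nerves.

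The C1q UMIs that chose the members are a description and not a finding. In all, 12498 barcodes held no C1q UMI, 2011 held 1 to 4 and 1198 held at least 5, of which 153 were left out for Mucl2 and 4 for the Cd3 genes. Members held 33069 of the 38199 C1q UMIs of the matrix (86.6%), with a median of 29 per member, 8 at the 5th and 61 at the 95th percentile. Just inside the threshold, at 5 or 6 C1q UMIs, 10 of 26 members had a Csf1r UMI (38.5%) and 13 had a Lyz2 UMI (50%). Just outside it, at 3 or 4 UMIs, 10 of 85 barcodes had Csf1r (11.8%) and 26 had Lyz2 (30.6%), and the median share of the secretory Dcpp transcripts was 30.0% of UMIs against 2.62% inside. The barcodes left out for Mucl2 held a median of 3526 UMIs, of which a median of 44.0% was Mucl2, and 49 of these 153 had a Csf1r UMI (32.0%).

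**Figure D1:**
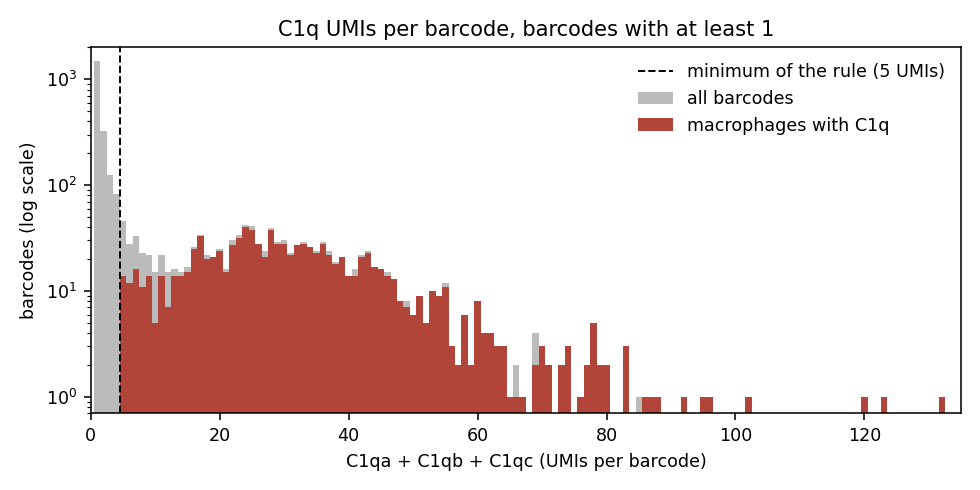
Barcodes (log scale) by their summed C1qa, C1qb and C1qc UMIs, with barcodes at 0 not drawn. Gray bars are all barcodes, red bars the 1041 macrophages and the dashed line the minimum of 5 UMIs. The counts fall steeply from 1 UMI to the threshold and form a broad second mode around the members' median of 29.

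Members held 1375 to 44139 UMIs, with a median of 2211 UMIs and 771 genes, and 2.42% of all UMIs of the matrix. Other classes, set by marker counts and limited to at most 1 C1q UMI, served for comparison. The nearest was a class of 118 C1q-low antigen-presenting cells (at least 5 UMIs of H2-Aa, H2-Ab1 and H2-Eb1 and at least 2 of Tyrobp, Fcer1g and Lyz2, without T or B cell genes), with a median of 2821 UMIs. The other was a class of 821 natural killer (NK) and ILC1-like cells, with a median of 1927 UMIs, which should lack most macrophage genes and served as a background. Fibroblasts (247 barcodes), endothelial cells (225) and epithelial cells (3558) were used for single genes. Genes of serous and demilune secretion stood at 2158 per 10000 in members, 1526 in antigen-presenting cells and 1460 in NK cells. Of the members, 178 (17.1%, 14.9–19.5) held RNA of another cell type at the level set for it, most often of ducts and other epithelium (99 members) or with Dcpp transcripts over 5% of UMIs (61), and the other 863 held 1214 per 10000 of the secretion list. The 863 were chosen in part by a low Dcpp share, so their lower secretion level follows in part from that choice. No doublet caller was run.

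The C1q genes lie side by side, within 18675 bases of chromosome 4 (chr4:136880129-136898803, GRCm38, minus strand). Their levels, which chose the members, were 44.4 per 10000 for C1qa (43.6–45.2), 42.4 for C1qb (41.6–43.1) and 22.5 for C1qc (22.0–23.1). Each chain was found in nearly every member, in 99.6%, 99.8% and 97.5%. The comparison classes were limited in C1q, so wherever the C1q genes stand below among genes higher in members, the rule had fixed it. Promoter windows are shown for C1qb and C1qc and for 2 of the genes leading the members' profile, Trem2 and Fcgr4, because all 4 hold the core letters bound by PU.1, the ETS factor of the myeloid lineage encoded by Spi1. The windows are the 250 bases before the RefSeq start, read 5′ to 3′ on the gene's strand in GRCm38.p6. The C1qc window lies partly inside the gene span used for the locus above, which runs to chr4:136893065. The bases after the C1qb start did not open an annotated transcript of the gene. They cover chr4:136886201-136886450 (minus strand) for C1qb, chr4:136892915-136893164 (minus) for C1qc, chr17:48346151-48346400 (plus) for Trem2 and chr1:171018676-171018925 (plus) for Fcgr4. Capitals mark GAGGAA or its other strand TTCCTC and, in C1qb, also TGCTGA, a half-site of MAF family factors.
C1qb: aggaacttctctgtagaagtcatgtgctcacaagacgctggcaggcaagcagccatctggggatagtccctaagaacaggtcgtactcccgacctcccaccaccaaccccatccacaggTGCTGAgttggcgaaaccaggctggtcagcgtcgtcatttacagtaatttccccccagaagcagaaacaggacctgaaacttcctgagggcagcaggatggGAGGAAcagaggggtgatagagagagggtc
C1qc: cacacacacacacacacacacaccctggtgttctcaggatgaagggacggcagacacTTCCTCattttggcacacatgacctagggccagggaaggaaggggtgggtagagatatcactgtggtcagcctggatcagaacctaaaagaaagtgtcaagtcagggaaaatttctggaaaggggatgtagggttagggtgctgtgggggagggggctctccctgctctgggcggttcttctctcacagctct
Trem2: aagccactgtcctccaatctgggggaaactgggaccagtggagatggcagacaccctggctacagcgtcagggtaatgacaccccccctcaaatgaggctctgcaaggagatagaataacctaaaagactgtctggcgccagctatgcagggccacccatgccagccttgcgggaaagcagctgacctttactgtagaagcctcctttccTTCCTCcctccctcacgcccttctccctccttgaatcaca
Fcgr4: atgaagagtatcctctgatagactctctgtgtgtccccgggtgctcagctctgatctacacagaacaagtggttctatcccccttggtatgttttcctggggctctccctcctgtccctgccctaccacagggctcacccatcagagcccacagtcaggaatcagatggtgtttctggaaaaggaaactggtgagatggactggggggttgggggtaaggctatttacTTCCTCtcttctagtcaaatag

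The PU.1 core stood in 7639 of 32851 promoter windows of the genome (23.3%) and the MAF half-site, TGCTGA or TCAGCA, in 5282 (16.1%). Of the 15 genes with the largest ratio of members to all other barcodes, 13 had a window, 9 of these held the PU.1 core and 3 the MAF half-site. These matches are a description of letters, not of binding. Spi1 stood at 3.24 per 10000 in members (3.05–3.45), 2.98 in C1q-low antigen-presenting cells and 0.0521 in NK cells, and the members did not differ from antigen-presenting cells beyond the counting interval (log2 ratio 0.12, −0.16 to 0.41). Maf, a factor of the MAF family, stood at 0.605 against 0.0253, from 1 UMI in the latter class (log2 ratio 4.58, 2.08 to 9.89).

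The label was then checked on markers that the rule had not used. Csf1r, the CSF1 receptor, stood at 3.61 per 10000 (3.40–3.83) and was found in 61.6% of members (58.5–64.5), against 0.379 per 10000 in C1q-low antigen-presenting cells and 0.487% of NK cells, whose median depth was 1927 UMIs against 2211 in members. With every cell thinned to 1000 UMIs, 32.9% of members, 5.08% of antigen-presenting cells and 0 of 821 NK cells, which allows a share of up to 0.365%, held Csf1r. No cell of these classes had fewer than 1000 UMIs. Lyz2, encoding lysozyme and partly shared in sequence with Lyz1, was found in 76.4% of members and 1.10% of NK cells (59.5% and 0.365% after thinning). Its level differed less between the antigen-presenting classes, at 20.2 against 12.7 per 10000 (log2 ratio 0.67, 0.54 to 0.81), and Lyz2 had helped to choose the latter class. Adgre1, which encodes F4/80, stood at 1.31 against 0.126 and was at 0 in NK cells. Cd68, a lysosomal glycoprotein of macrophages, stood at 3.10 against 1.16, and Itgam, the integrin chain CD11b, at 0.188 against 0.430 (log2 ratio −1.19, −1.99 to −0.32).

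A gene was compared where the 2 classes together held at least 50 UMIs, and counted as higher or lower past 2-fold. Against C1q-low antigen-presenting cells, 4814 genes were compared, 545 were higher in members (11.3%) and 402 lower (8.35%), and the median log2 ratio of all genes was −0.13. Against NK cells, 6506 genes were compared, 795 were higher (12.2%) and 1211 lower (18.6%), with a median of −0.37. The list of 26 macrophage identity genes had 23 comparable members, of which 14 were higher and 1, Itgam, lower than in antigen-presenting cells (median log2 ratio 1.44). Against NK cells 19 of 23 were higher and 0 lower (median 6.26), and the summed level of the list was 356 per 10000 in members, 65.4 in antigen-presenting cells and 60.9 in NK cells, where the signalling adaptors Fcer1g (30.1) and Tyrobp (25.2), which NK cells also use, made up most of it. Because a gene with few UMIs in the comparison class passes the minimum only when it is high in members, the counts for this and the following lists are descriptions and not support.

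Markers of most other blood cells had few UMIs. Of 10 neutrophil genes 3 had a UMI in members, with S100a8, S100a9, Ly6g, Retnlg and Cxcr2 at 0, and 0 of 1041 cells allows up to 0.288% of cells with a captured UMI for each, which does not bound the share of cells that express it. Of 8 mast cell and basophil genes 1 had a UMI. Monocyte genes summed to 1.24 per 10000 against 6.25 in antigen-presenting cells, and of 6 compared 0 were higher and 3 lower. Ccr2, the receptor that brings monocytes into tissue, stood at 0.268 against 1.57 (log2 ratio −2.55, −3.05 to −2.05). Of 13 dendritic cell genes compared 1 was higher and 9 were lower (median −3.33). Ccr7, the receptor for migration to lymph nodes, was 164-fold lower in members, and the dendritic lectin Cd209a 147-fold lower. T cell genes summed to 0.192 per 10000 against 5.97 in NK cells, and NK genes to 3.60 against 111. Fibroblast genes summed to 2.42 per 10000 in members and 393 in fibroblasts, endothelial genes to 0.529 and 108 in endothelial cells, and erythroid genes to 0.0727. The NK, fibroblast and endothelial classes were chosen by counts of their own marker genes, so their high levels of these lists follow from that choice. Members and NK cells were both chosen with Cd3e, Cd3d and Cd3g at 0. Duct genes were at 98.3 in members and 110 in NK cells, with a median of 2 UMIs per member, and at 17.5 in the 863 members without RNA of other types. B and plasma cell genes were at 22.4 in members and 1.53 in NK cells, but 1 barcode held 5069 Igkc UMIs, and the 863 members stood at 1.53. The 863 were chosen for low counts of epithelial, B and plasma cell genes, so their lower levels of both lists follow in part from that choice.

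**Figure D2:**
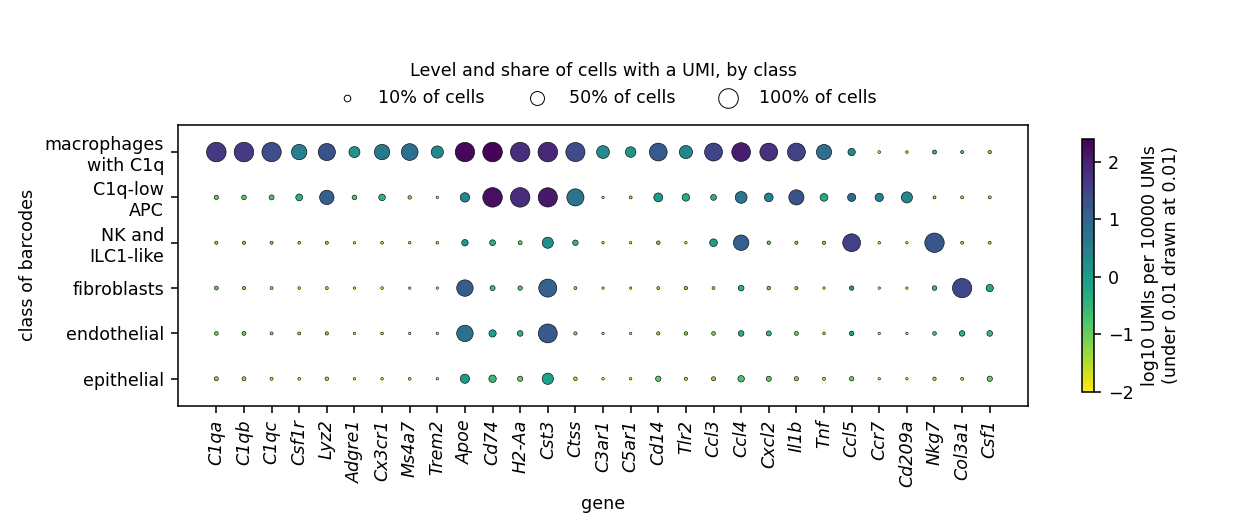
Genes (horizontal) in 6 classes of barcodes (vertical). Point area gives the percent of cells with a UMI and color the log10 level per 10000 UMIs, with levels under 0.01 drawn at 0.01. Macrophages share Cd74, H2-Aa and Cst3 with the C1q-low antigen-presenting cells (APC), whereas Apoe reached 205 per 10000 in macrophages and 2.25 in that class.

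The genes that set the members apart from every other barcode were led by surface receptors and C1q itself, which the rule had fixed. Among genes with at least 100 UMIs in members, the 15 with the largest ratio were Lilra5, Fcgr4, Trem2, Ms4a7, C1qa, Dppa3, C1qb, C1qc, Cxcl2, Cx3cr1, Clec5a, Il1a, Fcgr1, Ccl3 and C5ar1, with ratios from 305-fold for Lilra5 to 206-fold for C5ar1. Ms4a7, a tetraspan membrane protein of macrophages, was found in 72.4% of members and 0.244% of NK cells (48.7% and 0.244% at 1000 UMIs). Its level was 6.76 per 10000, against 2 UMIs in all C1q-low antigen-presenting cells (log2 ratio 7.06, 5.21 to 10.11). Trem2, a receptor for lipids and apoptotic cells, stood at 2.18 (2.01–2.35) and had 0 UMIs in antigen-presenting cells, so it was at least 28.7-fold higher. Cx3cr1, the fractalkine receptor, stood at 4.17 against 0.329 (log2 ratio 3.67, 2.89 to 4.58).

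Against C1q-low antigen-presenting cells alone, the 12 genes highest by ratio included the C1q genes, which the rule had placed there, and Apoe, Ms4a7, Igkc, Ccl3, Pf4, Trem2, Cxcl1 and C3ar1. Igkc, the immunoglobulin kappa constant gene, came from 1 barcode, which held 5069 of its 5087 UMIs, together with 885 of 888 Igha UMIs. The barcode held 39 C1q UMIs among 10592 UMIs. With barcodes that held RNA of other types left out of both classes, the log2 ratio of Igkc turned from 6.38 to −1.32. The 12 genes lowest by ratio, under the same minimum of 100 UMIs, were Ccr7, Cd209a, S100a4, Napsa, Avpi1, Tbc1d4, Traf1, Anxa2, Klrd1, Crip1, Naaa and Cytip, from 164-fold to 9.38-fold lower.

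Beside C1q, the complement genes read in members were mostly receptors. Of 23 complement component genes 14 had a UMI, and 4 of 5 compared were higher than in antigen-presenting cells, among them the C1q genes, by the rule. Cfp, encoding properdin, was lower, at 0.155 against 1.09 (log2 ratio −2.81, −3.44 to −2.18). The proteases of the C1 complex, its inhibitor and C3 had far higher levels in fibroblasts. C1ra stood at 0.00661 per 10000 in members, from 2 UMIs, and 3.18 in fibroblasts. C1s1 stood at 0.0198 and 6.09, C3 at 0.0297 and 4.99, and Serping1, the C1 inhibitor, at 0.0264 and 8.43. Among 10 complement receptors and regulators compared 2 were higher and 1, Itgam, lower. C3ar1, the C3a receptor, was found in 42.2% of members and 0.122% of NK cells, at 2.04 per 10000, with 0 UMIs in antigen-presenting cells (at least 26.9-fold higher). C5ar1, the C5a receptor, stood at 1.22 against 0.0253, from 1 UMI (log2 ratio 5.59, 3.10 to 10.90).

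In the CSF1 axis the receptor was found in macrophages, and its ligands stood higher in fibroblasts than in macrophages. Csf1 stood at 0.0562 per 10000 in members, 0.544 in fibroblasts and 0.275 in endothelial cells. Il34, the other ligand of the receptor, stood at 0.0430 in members and 0.208 in fibroblasts. Of 13 genes of this list compared with antigen-presenting cells 7 were higher (among them Csf1r, Cebpa, Cebpb, Maf, Tgfbr1 and Tgfbr2) and 1 lower. The gene that was lower was Csf2rb, the shared receptor chain for GM-CSF, at 0.155 against 1.09 (log2 ratio −2.81, −3.44 to −2.18).

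Engulfment, Fc receptor and lysosome genes followed. Of 8 engulfment genes compared 4 were higher and 0 lower: Trem2, Stab1, Axl and Cd36. Axl, a receptor tyrosine kinase that binds apoptotic cells through Gas6, stood at 1.20 against 0.480 (log2 ratio 1.32, 0.65 to 2.06), while the related Mertk had 19 UMIs in all members, too few for a ratio against 0 UMIs. Of 14 Fc receptor and adaptor genes 3 were higher and 0 lower. These were the activating IgG receptors Fcgr1 (1.20 against 0.253), Fcgr3 (1.73 against 0.152) and Fcgr4 (0.595 against 0 UMIs, at least 7.84-fold higher). Of 28 lysosome genes 18 were higher and 1 lower (median log2 ratio 1.09). Ctss, the protease that trims the invariant chain, stood at 24.6 against 5.39 (log2 ratio 2.19, 1.99 to 2.39). Ctsb and Lgmn, lysosomal proteases, both had a log2 ratio of 2.30. Cst3, encoding the protease inhibitor cystatin C, was on the other side, at 79.4 against 129 (log2 ratio −0.70, −0.75 to −0.66).

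Apoe carried the lipid list. The lipoprotein it encodes moves cholesterol out of phagocytes, and it was found in 98.5% of members and 9.62% of NK cells (95.9% and 5.24% at 1000 UMIs). Its level was 205 per 10000 (203–206), against 2.25 in antigen-presenting cells, 0.980 in NK cells and 14.2 in fibroblasts. The log2 ratio to antigen-presenting cells was 6.51 (6.21 to 6.82), which is 91.0-fold. Of 14 lipid genes compared 5 were higher and 2 lower, with a median log2 ratio of 0.15, so the list as a whole lay near the median of all genes. Iron and haem genes lay higher, with 6 of 9 above 2-fold and 0 below (median 1.56). Fth1, the ferritin heavy chain, stood at 113 against 38.5 (log2 ratio 1.56, 1.48 to 1.63), and Hmox1, which degrades haem, at 1.30 against 0.0506, from 2 UMIs (4.68, 2.82 to 7.73).

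Antigen presentation separated macrophages from NK cells and hardly at all from the C1q-low antigen-presenting cells, which had been chosen on class II genes. Cd74, the invariant chain of MHC class II, stood at 225 against 170 per 10000 (log2 ratio 0.41, 0.37 to 0.44), H2-Aa at 64.4 against 68.2 (−0.08, −0.14 to −0.02), and in NK cells at 0.402 and 0.115. Of 19 MHC genes compared with antigen-presenting cells 1, Cd83, was higher and 5 were lower, namely H2-DMb2, H2-Oa, H2-Ob, Ciita and Cd40. Cd83, which stabilises class II at the surface, stood at 15.9 against 7.84 (log2 ratio 1.02, 0.86 to 1.19). Ciita, the transactivator of class II genes, stood at 0.297 against 0.708 (−1.25, −1.88 to −0.58).

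Chemokine and cytokine transcripts were abundant. Of 18 chemokine genes compared 11 were higher and 5 lower (median log2 ratio 1.97), and their sum was 234 per 10000 in members, 31.1 in antigen-presenting cells and 51.4 in NK cells. Ccl4, an attractant of monocytes and T cells, stood at 117 per 10000 against 4.83 (log2 ratio 4.60, 4.39 to 4.81). Its neighbour Ccl3 stood at 31.0 against 0.430 (6.17, 5.49 to 6.95), and the neutrophil attractant Cxcl2 at 59.5 against 2.81 (4.41, 4.14 to 4.69). The chemokines that were lower were Ccl5, Ccl6, Ccl17, Ccl22 and Cxcl9. Ccl5 stood at 2.05 in members, 8.09 in antigen-presenting cells and 35.0 in NK cells. Of 16 cytokine and growth factor genes 7 were higher and 1 lower. Il1a stood at 8.13 against 0.455 (log2 ratio 4.16, 3.49 to 4.92) and Tnf at 6.84 against 0.531 (3.69, 3.07 to 4.38). Il1b, the other interleukin 1, differed less, at 34.6 against 19.8 (0.81, 0.70 to 0.91). Il12b, the p40 chain of interleukins 12 and 23, was the lower one, at 0.565 against 1.49 (−1.40, −1.84 to −0.95).

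Genes known to respond to tissue dissociation were read beside these. The glands had been digested for 30 min at 37 °C. Of 20 immediate early genes compared with antigen-presenting cells 6 were higher and 0 lower, and their sum was 157 per 10000 in members, 91.0 in antigen-presenting cells, 70.2 in NK cells, 317 in fibroblasts and 258 in endothelial cells. Of 11 heat shock genes 1, Dnajb1, was higher and 0 were lower (median 0.28). Their part in the chemokine and cytokine levels was not tested.

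Sensing and effector genes were mixed. Of 9 pattern recognition genes compared 5 were higher and 0 lower (Cd14, Tlr2, Tlr7, Ly96 and Nlrp3). Cd14, the co-receptor for lipopolysaccharide, stood at 14.5 against 1.19 (log2 ratio 3.61, 3.20 to 4.06). Of 13 antimicrobial genes 2 were higher, Cybb and Slc11a1, and 2 lower, Lyz1 and Ifitm3. Of 12 interferon response genes 3 were higher and 1 lower, and of 12 cell cycle genes 0 were higher and 9 lower (median −1.45). Of 17 genes compared from the salivary secreted proteins that the study had followed, 3 were higher (Ctsd, Hexa and Asah1, all lysosomal) and 4 lower (among them Cd44, Muc19 and A2ml1). Subcluster 3, described below, held 1052 A2ml1 and 544 Muc19 UMIs, against 60 and 35 in the other members. The 95th percentile of the Dcpp share was 8.98% in members and 38.1% in antigen-presenting cells. The part of gland RNA in the Muc19 and A2ml1 ratios was not tested.

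Counts against NK cells were as follows. Lysosome genes were higher in 27 of 29 compared and lower in 0, chemokines in 13 of 15 with 1 lower, cytokines and growth factors in 11 of 17 with 2 lower, and pattern recognition genes in 8 of 11 with 0 lower. MHC genes were higher in 11 of 18 with 2 lower, the CSF1 axis in 8 of 12 with 1 lower, and engulfment genes in 6 of 8 with 0 lower. Immediate early genes were higher in 13 of 20 and heat shock genes in 4 of 11, with 0 lower in either. Cell cycle genes were higher in 0 of 14 and lower in 6. Levels were also read without the members that held RNA of other types. In the other 863 members Apoe stood at 280 per 10000, Cd74 at 302, Ccl4 at 158 and Csf1r at 4.70, all above their levels in the 1041. Leaving out barcodes for RNA of other types raises the share of the remaining transcripts, so these higher levels follow in part from that choice.

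**Figure D3:**
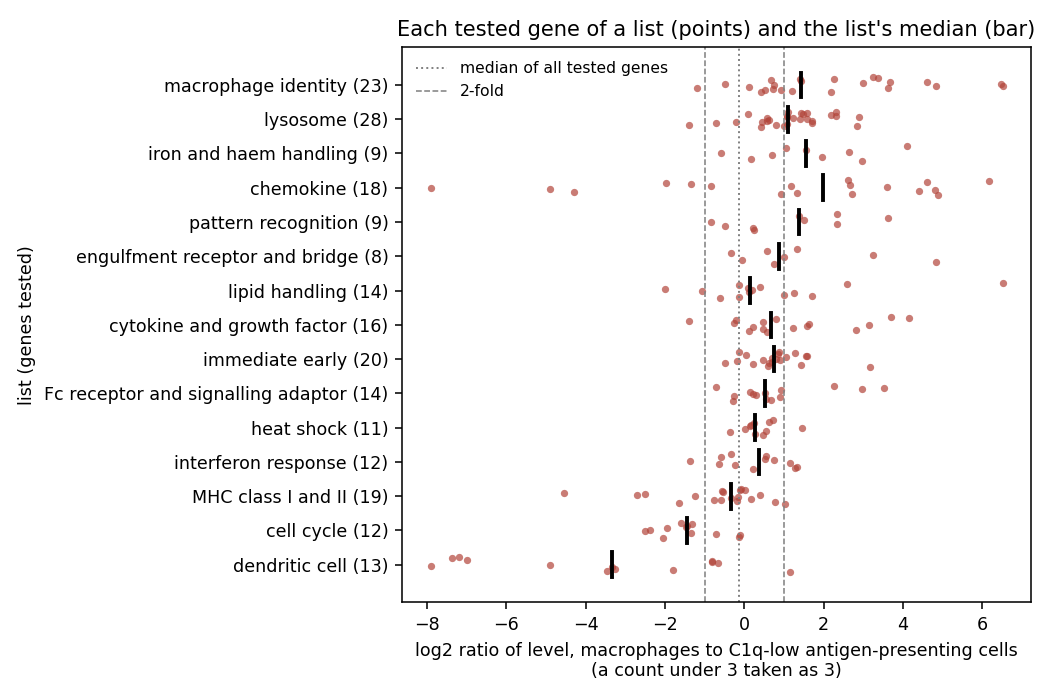
Log2 ratio of level, macrophages to C1q-low antigen-presenting cells, for each compared gene (points) of 15 lists, with a count under 3 taken as 3. Black bars are list medians, dashed lines mark 2-fold and the dotted line is the median of all compared genes, −0.13. Chemokine genes reach from below −7 to above 6, whereas MHC genes lie mostly between the dashed lines.

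Both known macrophage programs of mucosal tissue were looked for in the same cells. Of the CX3CR1 and class II program, Cx3cr1 was found in 61.3% of members and 0.487% of NK cells (37.6% and 0.122% at 1000 UMIs), Cd72 at 2.80 and Tmem119 at 0.892 per 10000. The resident LYVE1 and FOLR2 program of 20 genes was sparse. Lyve1 had 1 UMI, Vsig4 had 0, Timd4 had 3, Cd163 had 32 and Folr2 had 39 in all 1041 members, whereas Selenop, a secreted selenium carrier that fibroblasts also hold (8.38 per 10000), was found in 56.2% of members at 3.83 and in 5.97% of NK cells. The resident list summed to 9.45 per 10000 in members, 2.07 in antigen-presenting cells, 16.8 in fibroblasts and 11.4 in endothelial cells. At 1000 UMIs, 498 members held a UMI of the resident list (47.8%, 44.8–50.9), against 16.1% of antigen-presenting cells (9.98–24.0) and 4.99% of NK cells. Without thinning the shares were 73.6%, 35.6% and 10.6%. Selenop was the most widely found gene of this list in members. The class II program was found in 1039 members, so the 497 with both programs (47.7%, 44.7–50.8) follow from the resident count and say nothing on their joint use. The mean number of class II program UMIs was 61.7 in the 543 members without a resident UMI and 59.2 in the 218 with at least 2.

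Members differed widely from each other in secreted factors. At 1000 UMIs per cell the C1q sum had a median of 13, with 2 at the 5th and 24 at the 95th percentile. Apoe reached from 1 to 64 with a median of 22, Cxcl2 from 0 to 24 with a median of 4, and Lyz2 from 0 to 12 with a median of 1. Over the 1041 members, which come from 1 pooled matrix and differ in depth before thinning, the Spearman correlation of thinned counts was 0.75 for Ccl3 with Ccl4, 0.66 for H2-Aa with H2-Ab1, 0.50 for Ccl3 with Cxcl2 and 0.02 for Lyz2 with Cx3cr1. Secretion genes still took from 41 to 451 of the 1000 UMIs (5th to 95th percentile). Their part in these spreads and correlations was not tested.

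**Figure D4:**
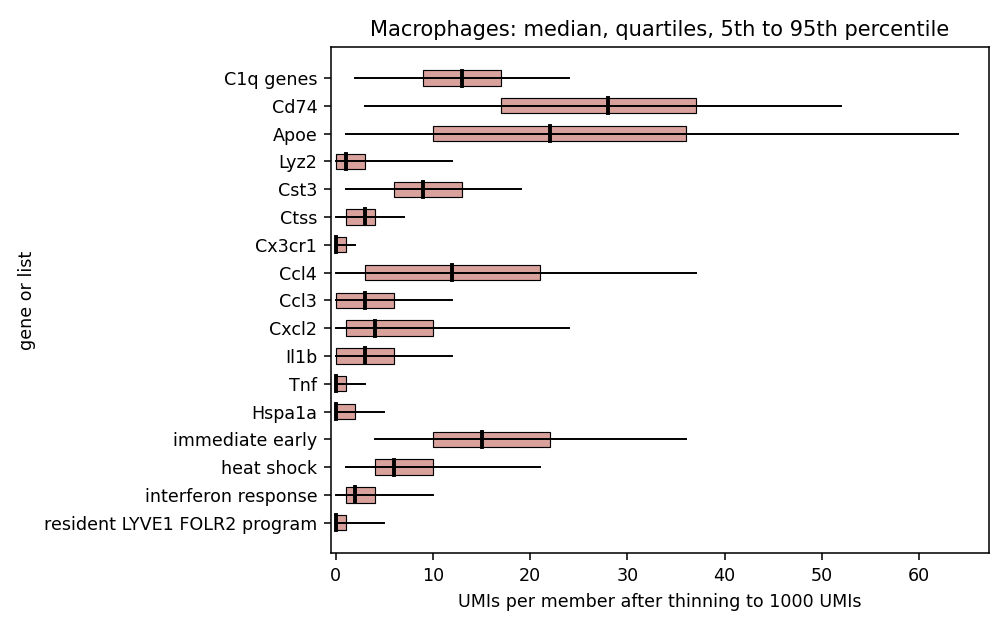
UMIs per macrophage after thinning each of the 1041 members to 1000 UMIs, for genes and summed lists. Bars are medians, boxes quartiles and lines the 5th to 95th percentile. Apoe spans from 1 to 64, whereas Ctss stays at or under 7 in 95% of members.

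Clustering of the members, without the C1q and secretion genes, gave 8 subclusters, which are numbered by size and described by leading genes with no test. Subclusters 1 and 2 held 337 (32.4%) and 248 members (23.8%). Apart from the immunoglobulin genes of the 1 barcode above, subcluster 1 was led by Mmp12, a macrophage elastase, at 5.12-fold the level in other members but found in 10.1% of its cells, and by Il12b at 3.88-fold, found in 10.7%. More widely found among its leading 10 were Arl5c, at 3.15-fold in 49.9% of its cells, and Tnfaip2, at 3.66-fold in 36.8%. Its Il1b level was 63.6 per 10000. Subcluster 2 was led by heat shock genes, with Hsph1 at 4.21-fold and Dnajb1 at 3.47-fold, and Hspa1a and Hspa1b, near-identical copies, beside them. Its heat shock list stood at 121.6 per 10000 and Hmox1 at 2.61.

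Subcluster 4 (99 members, 9.51%) was led, in this order, by Retnla, F13a1, Lyz1, Mrc1, Pltp, Ccr2, S100a4, Pf4, Fcrls and Mgl2, which include resident, monocyte and dendritic cell genes. Its monocyte list summed to 4.19 per 10000, against 0.822 and 0.589 in subclusters 1 and 2. Of the resident genes outside the leading 10, Folr2 stood there at 1.77 per 10000, against 0 UMIs in subclusters 1 and 2, and Cd163 at 1.40 against 0 likewise. Mrc1, the mannose receptor, was 44.7-fold and F13a1, coagulation factor XIII, 146-fold the level in other members, and Ccr2 29.3-fold. Retnla had the largest ratio, 534-fold, but was found in 8.08% of its members, 1 of which held 167 of the 449 Retnla UMIs. Lyz2 stood at 99.3 per 10000 and Apoe at 331, whereas Il1b (14.4) and Ccl4 (24.1) were below their levels in subclusters 1 and 2, and Cx3cr1 stood at 3.77. The resident list summed to 53.8 per 10000 in this subcluster. Of its members 8.08% held RNA of another type.

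Subcluster 5 (69 members, 6.63%) was led by interferon-induced genes, with Ifit3 at 43.8-fold, Rsad2 at 32.9-fold and Isg15 at 16.3-fold the level in other members, and with Ccl12, Cxcl10 and Irf7 among the 10. Subcluster 7 (42 members, 4.03%) was led by genes of mitosis and DNA replication, Birc5 at 55.5-fold with Pclaf, Ube2c and Top2a. A Mki67 UMI, marking cycling cells, was found in 54.8% of its members, whose median was 3542.5 UMIs, above the 2211 of all members.

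The other 3 subclusters were led by genes of other cell types. Subcluster 3 (158 members, 15.2%) was led by Dcpp, Muc19, A2ml1 and Bpifa2, secretory genes of the glands, and 46.8% of its members held RNA of another type. Subcluster 6 (64 members, 6.15%) was led by duct and other epithelial genes such as Krt14, Klk1b26 and Foxi1, with 89.1% of its members so marked and a median of 4894 UMIs. Subcluster 8 (24 members, 2.31%) was led by lymphocyte genes, Nkg7 at 178-fold and Xcl1 at 108-fold, with 70.8% so marked. C1qa stood at 21.3 per 10000 in subcluster 3, 13.6 in subcluster 6 and 30.2 in subcluster 8, below the 61.4 of subcluster 1. In subclusters 5 and 7 the members so marked were 2.90% and 14.3%.

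**Figure D5:**
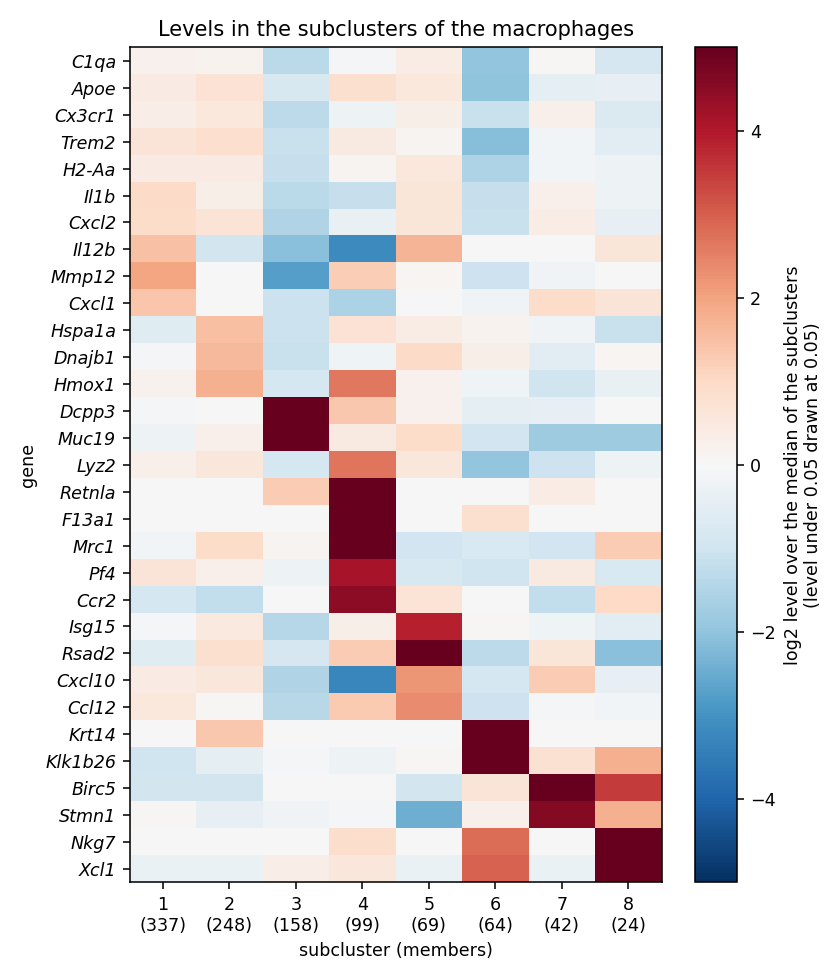
Log2 level of each gene (rows) over the median of the 8 subclusters (columns, with the number of members), with levels under 0.05 drawn at 0.05. Red is above and blue below the median. Retnla, F13a1, Mrc1, Pf4 and Ccr2 are red in subcluster 4, Isg15 and Rsad2 in subcluster 5, Birc5 and Stmn1 in subcluster 7, and genes of other cell types in subclusters 3, 6 and 8.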

How the data were processed

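The authors aligned and counted the droplet 3′ libraries with Cell Ranger 6.0.1 and named Seurat 4.1.1 for later steps, per the labels, on mouse genome mm10. They deposited whole-number UMI counts, with no normalization, in 1 matrix that pools the samples, whose barcodes share 1 suffix. The widths of the intervals depend on the UMIs or cells counted in each class compared, and the depth was a median of 2211 UMIs per member. From the counts, levels were computed with Python 3.11.15, numpy 2.4.6 and scipy 1.17.1, and clusters with scanpy 1.11.5 (1000 variable genes, 15 principal components, 15 neighbours, Leiden resolution 0.5). Ratio intervals are exact and conditional on the summed counts. A class with 0 counts was set to a floor of 3 counts, and calls past 2-fold used that floor for any count below it. No filter on cells beyond the rule was applied and no doublets were removed. Scripts were tested on simulated data. Genes named are those of the rule, of 35 gene lists, and the leading 15 against all other barcodes, 12 each way against antigen-presenting cells and 10 per subcluster. The leading genes were ranked among those with at least 100 UMIs in members, 100 in the 2 classes together and 50 in the subcluster, respectively. Members and lists were chosen with earlier results of these data known. Members held RNA of another type when they passed the marker minimum of that class, or 5% of Dcpp UMIs. Promoter windows came from RefSeq tables. C1qa and Dppa3 were without a window used here. Counting is not stated to resolve near-identical copies, so the values of Hspa1a and Hspa1b, Lyz1 and Lyz2, the Dcpp, Klk1b and Mup genes and the H2 genes are uncertain. A few genes are not reported here.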

Additional observations from a re-analysis of the deposited data

How the results depend on the processing

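The share of macrophages, 6.63% of barcodes, was 7.17% with a minimum of 3 C1q UMIs, 6.2% with 10, 5.17% with Mucl2 limited to 10%, 7.28% with a limit of 50%, and 5.49% without members holding RNA of other types, an alternative added after the data were seen. With genes compared from 10 UMIs on, 9883 genes were compared with C1q-low antigen-presenting cells, and 572 (545 before) were higher and 1870 (402) lower. In that small class the floor of 3 counts can by itself make a gene with few UMIs in members count as lower. The 1870 are therefore not a result about the members. Against NK cells 10983 genes were compared, and 1460 (795) were higher and 2337 (1211) lower. Without the secretion genes in the total, higher genes made up 66.6% of calls against antigen-presenting cells, up from 57.6%, and 47.5% against NK cells, up from 39.6%, and the median ratios became −0.02 and −0.25. Members with both programs were 31.2% at 500 UMIs and 73.6% without thinning, so this share, set by the resident list, follows depth. Resolution 0.3 gave 5 subclusters, and the adjusted Rand index to the 8 ranged from 0.328 to 0.491 over the alternatives. The share of a subcluster kept together fell as low as 47.8% for subcluster 1, 33.9% for 2 and 32.9% for 3. The lowest shares were 55.1% for subcluster 5 and 57.1% for 6, against 84.6% for 4, 88.1% for 7 and 100% for 8. Leaving out the C1q genes and the alternatives that cannot change a single ratio or shift all alike, 138 values remained for 23 gene ratios against antigen-presenting cells under 6 alternatives. Of these, 119 lay within the counting interval and 17 moved beyond it in the same direction. Among the 17 were Apoe, to 7.41, and Lyz2, to 1.02, with barcodes holding other RNA left out of both classes. Igkc turned from 6.38 to −1.91 without cells of high UMIs, and to −1.32 with barcodes holding other RNA left out of both classes. No paired analysis was possible because the matrix holds 1 group and no map from barcodes to samples. With 1 pooled sample, variation between mice, glands and libraries was not measured, and free RNA and doublets cannot be told apart from transcripts of the members.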
